A study of Mus musculus with 3 samples.

Results

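The genes described here make, sense, store, move and export cholesterol. They are 32 genes chosen by name for their function, with earlier results of these data known. All 32 were among the 16129 genes listed in the deposited table. They were read in type 2 innate lymphoid cells (ILC2s), lymphocytes of barrier tissues that lack rearranged antigen receptors and release type 2 cytokines. The mice were wild type, all were treated in vivo with the alarmin IL-33, and the cells were sorted from their lungs. The data are 3 RNA sequencing libraries of this 1 group, numbered 1 to 3 as replicates. The sources used here do not give the age or strain of the mice, or the antibodies and gates of the sort. The labels do not say whether each library is a separate mouse, so differences among the 3 may be technical only. No untreated cells were analysed here, so no value below is a response to IL-33. The questions open to these data are how high each sterol gene stood, how paired genes compared within a library, and which genes differed between libraries.

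Animal cells build cholesterol from acetyl-CoA through mevalonate, isoprenoids and squalene, and then trim lanosterol to cholesterol in a series of oxidations and reductions. SREBP transcription factors, held in the endoplasmic reticulum by the sterol sensor SCAP and the INSIG proteins, switch this route on when sterols are scarce. LXR nuclear receptors, activated by oxysterols, switch on export through ABC transporters when sterols are plentiful. Dividing lymphocytes need new membrane and are known to raise the synthesis side of this balance.

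SREBPs bind sterol regulatory elements close to the start of many of these genes, often beside a CCAAT box bound by NF-Y. The RefSeq promoter table (GRCm38.p6, 300 bases around each annotated start) held 35 windows for 26 of the 32 genes. The letters TCACNCCA, a core shared by sterol regulatory elements, occurred on either strand in the windows of 3 of these 26 genes (11.5%), against 4.97% of all 27025 genes with a window. By window this was 3 of 35 (8.57%), against 4.36% of all windows. The box CCAAT occurred in 21 of the 26 (80.8%), against 41.1% of all genes, and 43.8% of genes detected in these cells. By window this was 22 of 35 (62.9%), against 37.4% of all windows. The E-box CACGTG, another element that SREBPs can bind, occurred in 6 of the 26 (23.1%), against 8.09% of all genes, and 12.0% of detected genes. By window this was 7 of 35 (20.0%), against 7.15% of all windows. No TCACNCCA overlapped a CCAAT in the members' windows (0 pairs). These are matches of letters, and no binding was measured. The 250 bases before the start are shown for the 3 genes with a TCACNCCA, with both motifs in capitals (ATTGG is CCAAT read on the other strand).
Hmgcs1 (chr13:119690101-119690350, plus strand): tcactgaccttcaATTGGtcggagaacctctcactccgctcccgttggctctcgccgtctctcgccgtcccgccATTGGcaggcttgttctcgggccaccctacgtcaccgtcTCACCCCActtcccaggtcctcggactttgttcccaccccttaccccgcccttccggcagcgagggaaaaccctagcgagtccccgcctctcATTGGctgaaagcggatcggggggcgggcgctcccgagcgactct
Srebf2 (chr15:82147019-82147268, plus strand): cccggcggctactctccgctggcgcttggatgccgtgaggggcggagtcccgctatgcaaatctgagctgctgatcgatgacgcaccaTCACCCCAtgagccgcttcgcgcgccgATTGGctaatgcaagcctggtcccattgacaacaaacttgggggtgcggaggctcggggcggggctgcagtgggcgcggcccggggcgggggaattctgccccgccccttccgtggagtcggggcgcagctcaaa
Msmo1 (chr8:64733579-64733828, minus strand): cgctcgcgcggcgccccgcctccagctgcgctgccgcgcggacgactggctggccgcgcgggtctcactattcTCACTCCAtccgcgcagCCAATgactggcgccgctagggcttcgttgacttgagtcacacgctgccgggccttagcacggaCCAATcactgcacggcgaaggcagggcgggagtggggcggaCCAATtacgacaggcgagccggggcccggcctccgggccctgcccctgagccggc
The TCACNCCA began 137 bases before the start of Hmgcs1, 162 before that of Srebf2 and 177 before that of Msmo1. The printed stretch of Hmgcs1 held 3 CCAAT boxes, that of Msmo1 held 3 and that of Srebf2 held 1. These 3 genes, a mevalonate enzyme, the sterol-responsive SREBP gene and a sterol oxidase, are taken up in turn below.

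Levels are given in TPM, in which reads are divided by transcript length and scaled to the same total in every library, so that genes can be set against each other. Detection required a level of at least 1 TPM in all 3 libraries. Of the 32 sterol genes 31 were detected, against 67.3% of all listed genes, and 26 lay above the median gene of the table (11.2 TPM). Their own median was 30.6 TPM, and the middle gene of the set lay at percentile 68.1 of all listed genes. Together they took 0.134%, 0.131% and 0.133% of all TPM in replicates 1, 2 and 3. The libraries held 19948056, 19883728 and 19976129 estimated reads, so that Sqle, close to the set's median, rested on 731 to 823 reads per library. All 14 ILC2 markers were detected, each at a mean of at least 100 TPM, led by Arg1 (2459.7 ± 88.4 TPM, SD, n = 3).

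**Figure D1:**
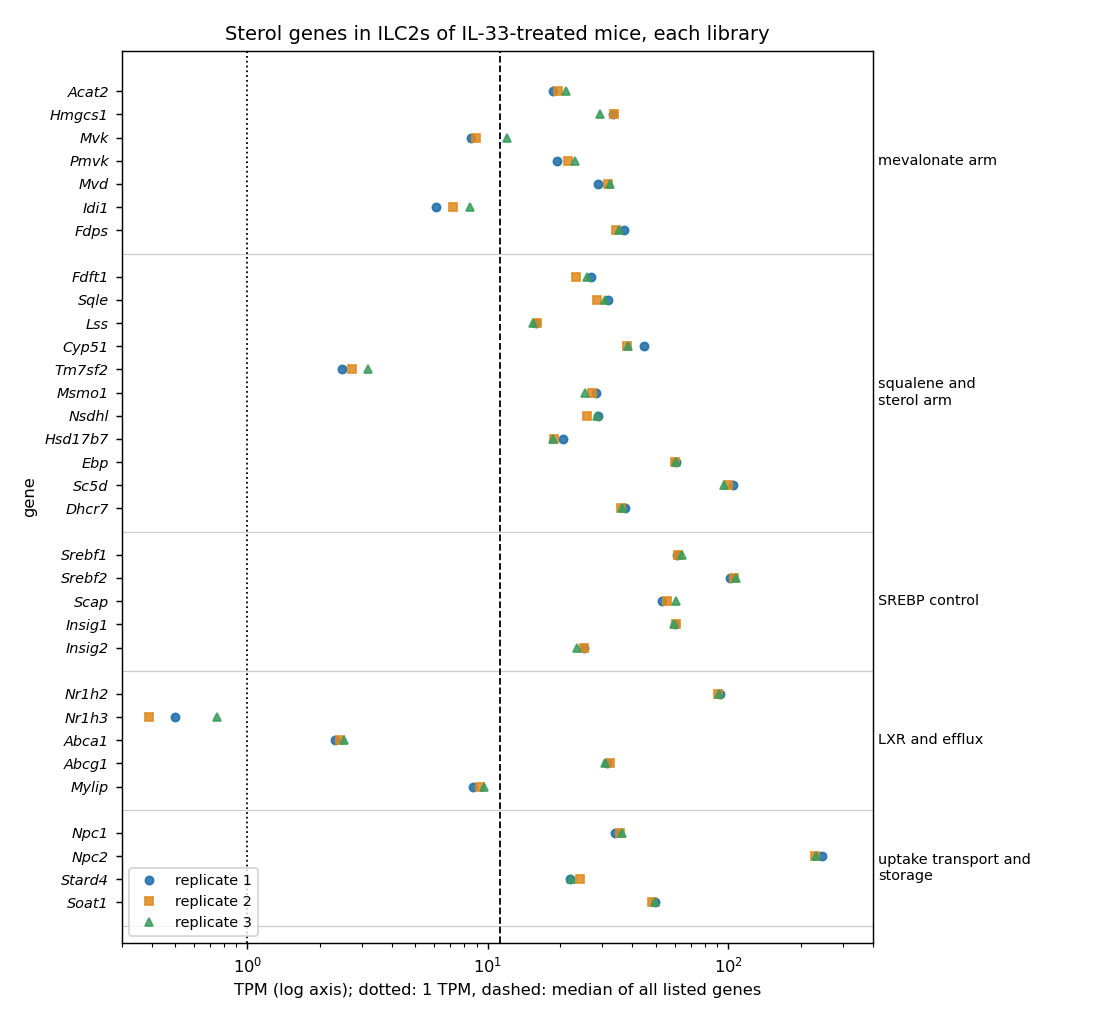
TPM of each of the 32 sterol genes on a log axis, 1 symbol per library, grouped by role. The dotted line is the detection level of 1 TPM and the dashed line the median of all listed genes (11.2 TPM). Only Nr1h3 lies left of the dotted line, and Npc2 stands highest at a mean of 235.5 TPM.

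The mevalonate arm turns acetyl-CoA into the isoprenoid farnesyl diphosphate. All 7 of its genes were detected, 5 had a mean of 10 TPM or more, and the median was 21.4 TPM. Fdps, which makes farnesyl diphosphate, was highest of the 7 at 36.96, 34.26 and 35.27 TPM in replicates 1, 2 and 3. Hmgcs1 (Entrez 208715, chromosome 13 from 119690351 to 119708260), the HMG-CoA synthase whose promoter is shown above, stood at 33.21, 33.42 and 29.4 TPM, lower in replicate 3 than in both others. Mvd, the mevalonate diphosphate decarboxylase, followed at 30.9 ± 1.92 TPM (SD, n = 3). The kinase gene Pmvk stood at 21.4 ± 1.82 and the thiolase gene Acat2, for the first step, at 19.9 ± 1.24. The lower end was held by Mvk, mevalonate kinase, at 8.48, 8.9 and 12.0 TPM, and by Idi1, the isopentenyl diphosphate isomerase, at 6.07, 7.18 and 8.42 TPM. Both Mvk and Idi1 were highest in replicate 3, and Idi1 was the lowest gene of the arm in every library.

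Reads of 4 genes of this arm are less certain, because other genes share their sequence or lie opposite it. Of the 50-base words of the annotated Acat2 transcripts 39.1% also occur in Acat3, a close copy that stood at 1.16 TPM, and a further 11.2% lie opposite transcripts of Tcp1, which stood at 240.2 TPM. Fdps shares 26.2% of its words with other annotated genes, most of them with Gm43738 (23.4%), which is not listed in the table. Idi1 shares 17.7% with Gm13502 on the same strand and 7.62% with Gm48574 on the opposite strand, neither of them listed. Of the words of Hmgcs1 11.6% lie opposite other transcripts, most of them (10.0%) those of Gm48342, which is not listed either. The sources used here do not say whether strand was used in counting.

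The squalene and sterol arm takes farnesyl diphosphate to cholesterol. All 11 of its genes were detected, 10 had a mean of 10 TPM or more, and the median was 27.7 TPM. Sc5d (Entrez 235293, chromosome 9 from 42251592 to 42264300), the lathosterol desaturase of a late step, was highest at 105.09, 99.5 and 95.73 TPM, far from the next gene in each library. Ebp, the sterol isomerase just before it, was nearly level across libraries at 60.72, 60.18 and 60.51 TPM. Cyp51, the demethylase that first acts on lanosterol, stood at 44.75 TPM in replicate 1 and at 38.02 and 38.29 in replicates 2 and 3. Dhcr7, the reductase of the last step, was at 36.4 ± 0.824 TPM (SD, n = 3).

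The genes at the entry to this arm lay below those just named, but not below all later ones. Fdft1, squalene synthase, stood at 25.3 ± 1.83 TPM, Sqle, the squalene epoxidase that limits the rate of the sterol-specific steps, at 30.3 ± 1.65, and Lss, which closes the ring to lanosterol, at 15.8 ± 0.318. Of the demethylation complex, the oxidase gene Msmo1 was at 26.9 ± 1.31, the dehydrogenase gene Nsdhl at 27.7 ± 1.66 and the ketoreductase gene Hsd17b7 at 19.4 ± 1.07. Their 3 ranges spanned 18.66 to 28.79 TPM, with that of Hsd17b7 below both others. Tm7sf2, a sterol reductase, was the exception of the arm at 2.47, 2.72 and 3.17 TPM, on 34 to 43 estimated reads per library. Of its words 9.87% are shared with Vps51 (28.1 TPM). Of those of Fdft1 9.38% are shared on the same strand with Gm6781, which is not listed, and 17.2% lie opposite transcripts of Ctsb (334.7 TPM).

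The mean log2(TPM + 1) of the mevalonate genes was below that of the squalene and sterol genes by 0.57, 0.41 and 0.35 in replicates 1, 2 and 3, a mean of -0.44 ± 0.11 (SD, n = 3) as the first minus the second. The difference had this direction in 3 of 3 libraries, and it is given with no test because the genes of a list are not replicates. Among enzyme pairs named for comparison, Cyp51 exceeded Lss by 1.298 ± 0.13 in log2(TPM + 1), and the ratio of their mean TPM was 2.56. Hmgcs1 and Sqle did not separate: their difference was 0.07, 0.22 and -0.07 in replicates 1, 2 and 3, with an SD of 0.15 that exceeds the mean of 0.07.

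The SREBP machinery stood above both enzyme arms, with a median of 60.2 TPM over 5 genes, all detected. Srebf2 (Entrez 20788, chromosome 15 from 82147269 to 82205379), the SREBP gene tied most closely to sterol synthesis, was at 101.84, 105.41 and 107.6 TPM. Srebf1, whose products lean to fatty acid synthesis, was at 61.31, 61.9 and 64.3 TPM. The ranges do not overlap, and Srebf2 exceeded Srebf1 by 0.74 ± 0.02 in log2(TPM + 1), and the ratio of their mean TPM was 1.68. Srebf1 has separate starts for its isoforms, which gene-level values do not separate.

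Scap (Entrez 235623, chromosome 9 from 110333288 to 110384949), the escort that carries SREBPs to the Golgi, was at 52.95, 55.61 and 60.42 TPM, below Srebf2 in every library by a mean of 0.89 ± 0.06 (log2(TPM + 1) scale). Of its words 9.96% lie opposite transcripts of 5830462I19Rik, which is not listed. The retention genes were unequal. Insig1 (Entrez 231070, chromosome 5 from 28071412 to 28078662), itself a known SREBP target, was at 59.97, 60.81 and 59.73 TPM, a coefficient of variation of 0.942%, the smallest of the 32 genes but for Ebp (0.45%). Insig2 was at 25.14, 25.04 and 23.58 TPM. Insig1 exceeded Insig2 by 1.26 ± 0.04 in log2(TPM + 1), a ratio of mean TPM of 2.45, with no overlap between libraries.

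The LXR and export genes ranged from 0.547 to 91.7 TPM, with 4 of 5 detected and a median of 9.22 TPM. Nr1h2 (Entrez 22260, chromosome 7 from 44549616 to 44553968), which encodes the widely expressed receptor LXR-beta, stood at 92.84, 90.46 and 91.88 TPM. Nr1h3 (Entrez 22259, chromosome 2 from 91184061 to 91202829), which encodes LXR-alpha of liver, fat and macrophages, was at 0.5, 0.39 and 0.75 TPM on 8, 6 and 11.8 estimated reads. It was the only one of the 32 genes below the detection level. Nr1h2 was 186, 232 and 123 times as high as Nr1h3 in replicates 1, 2 and 3, a difference of 5.91 ± 0.16 on the log2(TPM + 1) scale. These ratios rest on few reads of Nr1h3 and are imprecise.

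The promoter windows held for these receptor genes differ in CG content, a textbook feature of widely active starts. The 250 bases before the start are shown with each CG in capitals, for Nr1h3 at the more upstream of its 2 starts in the table. Both of these starts lie inside the annotated Nr1h3 gene (91184061 to 91202829, minus strand). A start at the outer end of the gene had no window and was not examined.
Nr1h2 (chr7:44553966-44554215, minus strand): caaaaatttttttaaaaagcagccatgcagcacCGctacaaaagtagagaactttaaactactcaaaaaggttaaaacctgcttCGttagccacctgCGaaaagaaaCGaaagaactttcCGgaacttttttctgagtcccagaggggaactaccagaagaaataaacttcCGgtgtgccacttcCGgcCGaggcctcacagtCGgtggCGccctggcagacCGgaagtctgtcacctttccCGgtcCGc
Nr1h3 (chr2:91195117-91195366, minus strand): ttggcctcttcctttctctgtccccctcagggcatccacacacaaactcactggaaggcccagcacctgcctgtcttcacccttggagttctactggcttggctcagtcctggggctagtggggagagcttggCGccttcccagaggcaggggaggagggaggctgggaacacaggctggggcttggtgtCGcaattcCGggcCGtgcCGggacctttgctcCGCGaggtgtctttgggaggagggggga
The printed stretch of Nr1h2 held 13 CG and that of Nr1h3 held 7. Over the 300-base windows the counts were 19 for Nr1h2 and 8 and 10 for the windows of Nr1h3, against a median of 21 in the members' windows, 21 in those of detected genes and 7 in all windows. The window of Abca1, a low gene, held 26 CG, and that of Ebp, a higher one, held 10. No relation between CG content and level was computed.

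The exporters differed in the same libraries. Abcg1 (Entrez 11307, chromosome 17 from 31057694 to 31117984), which passes cholesterol to HDL particles, was at 31.29, 32.13 and 30.88 TPM. Abca1 (Entrez 11303, chromosome 4 from 53030789 to 53159988), which loads lipid-poor apolipoproteins, was at 2.31, 2.44 and 2.52 TPM. Abcg1 exceeded Abca1 by 3.24 ± 0.06 in log2(TPM + 1), a ratio of mean TPM of 12.97, and each level rested on at least 228 estimated reads per library. Mylip, an LXR-induced ubiquitin ligase that degrades lipoprotein receptors, was at 9.22 ± 0.47 TPM (SD, n = 3).

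Macrophages express Nr1h3 and Abca1, so their markers were read beside these genes. Of 17 listed macrophage markers 12 were detected, and their summed level was 477, 460 and 621 TPM in replicates 1, 2 and 3, most of it Chil3 (337.6, 326.62 and 461.15 TPM). Of the 12 detected markers 10 were highest in replicate 3, as were 40.2% of all detected genes. Nr1h3 and Abca1 were also highest there, and neither passed the chi-square test of counts between libraries (adjusted p = 0.619 and 0.889). After Chil3 the highest markers were Fabp5 (63.6 ± 5.49 TPM), which was highest in replicate 1, and Lyz2 (39.1 ± 6.98 TPM). Siglecf, a defining marker of alveolar macrophages, stood at 0.383 ± 0.107 TPM, among 4 of the 17 below 1 TPM in all libraries. The part of such cells in the low levels of Nr1h3 and Abca1 was not tested. In sorted bulk cells, a low level in all cells and a high level in few cells cannot be told apart.

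The genes grouped as uptake, transport and storage, none of them a lipoprotein receptor, were all detected (4 of 4), with a median of 42.2 TPM. Npc2 (Entrez 67963, chromosome 12 from 84754559 to 84773112), the soluble lysosomal protein that hands cholesterol to NPC1, was the highest sterol gene at 244.81, 229.16 and 232.6 TPM. Npc1, its membrane partner, was at 33.8, 35.65 and 36.25 TPM. Npc2 exceeded Npc1 by 2.71 ± 0.10 in log2(TPM + 1), a ratio of mean TPM of 6.68. Soat1 (Entrez 20652, chromosome 1 from 156428108 to 156474328), which esterifies cholesterol for storage in droplets, was at 49.81, 48.06 and 49.74 TPM and exceeded Abcg1 by 0.63 ± 0.06. Stard4, a cytosolic sterol carrier, was at 22.7 ± 1.198 TPM (SD, n = 3).

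**Figure D2:**
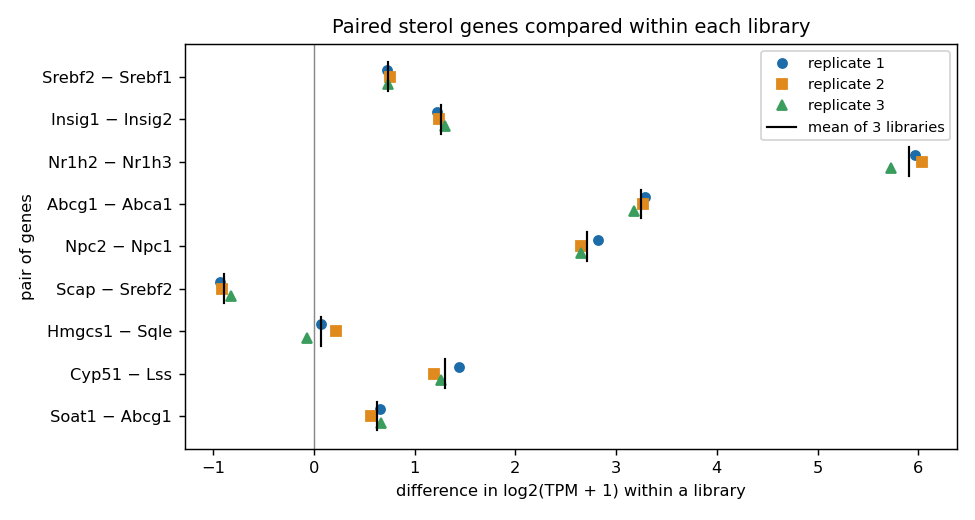
Difference in log2(TPM + 1) between the genes of each of 9 pairs, 1 symbol per library, with a bar at the mean of the 3 libraries. Hmgcs1 minus Sqle straddles 0, and the other pairs lie on the same side in all libraries, from -0.89 for Scap minus Srebf2 to 5.91 for Nr1h2 minus Nr1h3.

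Of the 9 pairs 8 had the same direction in 3 of 3 libraries. With 3 libraries, flipping the signs of the differences in every way gives an exact two-sided permutation p of 0.25 at the least. These 8 pairs each had that exact permutation p of 0.25, which was 0.281 after Benjamini-Hochberg adjustment over the 9, and Hmgcs1 against Sqle had 0.5, so no pair could pass 0.05 in this design. Sizes are therefore given beside the SD between libraries. That SD does not include errors of transcript length or shared sequence that are common to all 3 libraries.

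In the order of all 32 levels, 31 neighbouring pairs can be formed, and the ranges over libraries overlapped in 18 of them and not in 13. The widest steps separated Npc2 from Srebf2 (2.24-fold in mean TPM), Nr1h2 from Srebf1 (1.47-fold), Lss from Mvk (1.61-fold), Idi1 from Tm7sf2 (2.59-fold) and Abca1 from Nr1h3 (4.43-fold). Between these steps neighbours such as Ebp and Insig1 (1.005-fold) or Fdps and Npc1 (1.01-fold) had overlapping ranges. From Sqle, at 30.3 TPM, down to Hsd17b7, at 19.4 TPM, each gene overlapped the next.

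Levels per length depend on the length used. The effective length behind each value, computed from the deposited reads and FPKM, was 4505 bases for Hsd17b7, whose coding transcripts in GENCODE run from 1446 to 4612 bases. For Stard4 it was 5264 bases against 648 to 5097, and for Cyp51 4303 bases against a single length of 3931. Both exceed the GENCODE transcripts, so the annotation behind the levels was another, and which forms were counted cannot be read from these lengths. For Lss it moved with the library, at 4031, 4283 and 4215 bases in replicates 1, 2 and 3, the widest shift of the 32 (1.06-fold).

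Libraries were then compared gene by gene, to see which sterol genes differed by more than counting error. A chi-square test of rounded estimated counts against library totals was run on 12424 genes with at least 20 reads summed over libraries. After Benjamini-Hochberg adjustment over all of them, 1360 genes (10.9%) passed 0.05, and 5 of the 32 sterol genes did (15.6%), namely Cyp51, Npc2, Scap, Hmgcs1 and Mvk. At an unadjusted 0.05 it was 9 of the 32, beside 23.2% of all genes tested. The test compares these libraries and no conditions, and a share of 15.6% is near the background.

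Cyp51 differed most, with 1857.5 estimated reads in replicate 1 against 1556.8 and 1564.5 (chi-square test, adjusted p = 1.15e-06). Npc2 was also highest in replicate 1, at 7585.8 reads against 7004.9 and 7093.9 (adjusted p = 6.97e-05). Scap was highest in replicate 3, at 2399.7 reads against 2134.9 and 2207.0 (adjusted p = 0.00575). Hmgcs1 was lowest in replicate 3 (adjusted p = 0.0173) and Mvk highest there (adjusted p = 0.0326). The size of these differences was small: the highest library exceeded the lowest by under 1.2-fold in 28 of the 32 genes. Of the genes that passed, Mvk had the widest range (1.42-fold). Nr1h3 had the widest of all (1.92-fold) and did not pass on its few reads (adjusted p = 0.619 in the chi-square test). The calls depend on which libraries are compared. Without replicate 1, 0 sterol genes passed the chi-square test, against 4.13% of 11984 genes, and 4 had an unadjusted p under 0.05, against 14.9% of those genes. Without replicate 2 it was 7 of 32 (21.9%), which adds Idi1 and Sc5d, against 7.14% of genes. Without replicate 3 it was 2 of 31 (6.45%), Cyp51 and Npc2, against 7.85%.

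**Figure D3:**
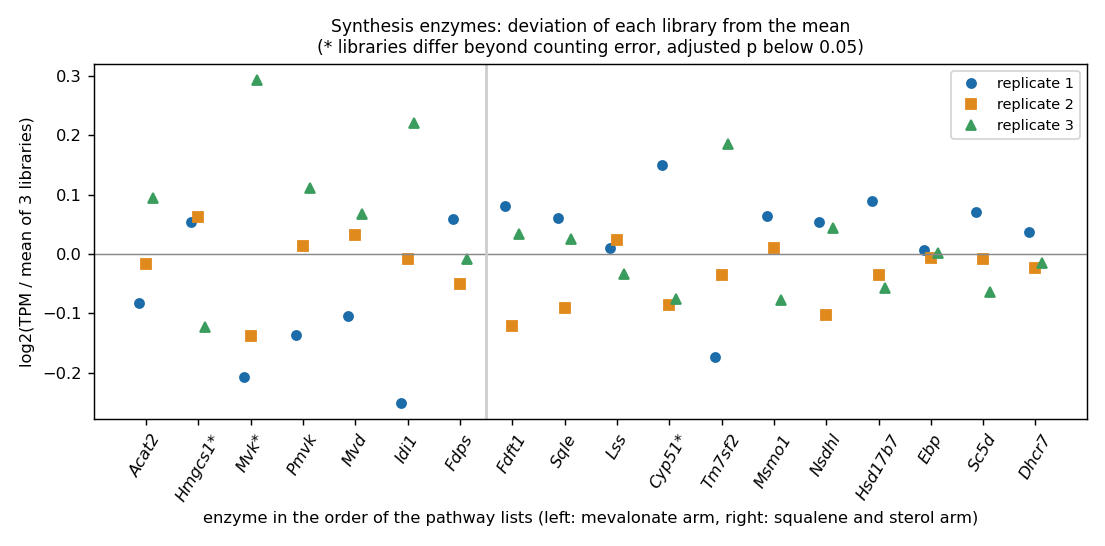
Deviation of each library from the 3-library mean, as log2 of the TPM ratio, for the 18 synthesis enzymes, with the mevalonate arm left of the grey line. Stars mark Hmgcs1, Mvk and Cyp51. Replicate 1 is highest for 9 of 11 genes on the right, and replicate 3 for 5 of 7 on the left.

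The 2 arms leaned to different libraries. In the squalene and sterol arm 9 of 11 genes were highest in replicate 1, where 26.9% of all detected genes were, and the exceptions were Lss and Tm7sf2. In the mevalonate arm 5 of 7 genes (Acat2, Mvk, Pmvk, Mvd and Idi1) were highest in replicate 3, where 40.2% of all detected genes were. The summed level of the sterol arm was 402, 376 and 379 TPM in replicates 1, 2 and 3 and that of the mevalonate arm 152, 157 and 162 TPM. This was noticed after the values were seen and was not tested. Of the 18 enzymes 3 passed the test of single genes above, beside 10.9% of all genes tested. Markers of some other cells were also higher in replicate 3, and those of others were lower. The level in replicate 3 over the mean of replicates 1 and 2 was taken for genes with a mean of at least 1 TPM. Its median was 1.39 for the 12 macrophage markers and 1.28 for the 2 T cell markers. It was 0.95 for the 8 lung epithelial markers and 0.841 for the 2 B cell markers. The endothelial list and the fibroblast and smooth muscle list held 1 such gene each, both higher in replicate 3. The median was 1.105 for the mevalonate genes and 0.985 for the squalene and sterol genes. The part of such cells in this lean was not tested. Between libraries the sterol genes of 10 to 100 TPM had a median SD of 0.07 in log2(TPM + 1) (23 genes), beside 0.06 for all 6604 genes in that range.

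The neighbouring lipid lists give the setting of these levels. All 11 genes of SREBP processing and sterol-dependent degradation were detected, among them Mbtps1, which encodes the site-1 protease that cleaves SREBPs (96.5 ± 0.556 TPM), and the COPII coat gene Sec24c (96.0 ± 2.61). All 14 isoprenoid genes were detected, at a median of 30.3 TPM, with the prenyl protein protease gene Zmpste24 (69.2 ± 2.97), Fnta (67.4 ± 5.61) and Rabggtb (51.7 ± 5.55), both of protein prenyltransferases, on top.

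Fatty acid genes that SREBPs control were mixed, with 10 of 13 detected and a median of 15.8 TPM. Elovl5, an elongase, reached 261.0 ± 1.598 TPM, Acly, which supplies cytosolic acetyl-CoA, 126.8 ± 5.28 and the desaturase gene Scd2 53.8 ± 1.48. The related desaturase gene Scd1 stood at 0.313 ± 0.0551, Acacb at 0.663 ± 0.101 and Me1 at 0.483 ± 0.122, each below 1 TPM in all libraries. The mean log2(TPM + 1) of the 18 sterol synthesis enzymes exceeded that of these fatty acid genes by 0.95 ± 0.06 and that of the LXR and export genes by 1.17 ± 0.02 (SD, n = 3), in 3 of 3 libraries, again with no test.

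Oxysterol genes were the lowest of the lists, with 3 of 7 listed genes detected and a median of 0.767 TPM. Gpr183, the oxysterol receptor that guides lymphocytes, stood apart at 36.2 ± 0.241 TPM. The sulfotransferase gene Sult2b1 was at 2.63 ± 0.695 and Hsd3b7 at 1.85 ± 0.465. The hydroxylase genes Ch25h (0.767 ± 0.318), Cyp27a1 (0.09 ± 0.0819) and Cyp39a1 (0.07 ± 0.04), which make or clear LXR ligands, were below 1 TPM in all libraries. Cyp7b1 and Cyp46a1 were not analysed here.

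Sterol carriers were widely detected (17 of 19, median 30.3 TPM). They were led by Gramd1a, which moves plasma membrane cholesterol to the endoplasmic reticulum (185.1 ± 2.90 TPM), Osbpl8 (69.0 ± 3.54) and Vps4a (55.7 ± 1.44). Of the lipoprotein receptor genes in this list, Lrp1 (0.67 ± 0.205) and Vldlr (0.0167 ± 0.0208) were below 1 TPM in all libraries. Scarb1 was detected (13.1 ± 0.314). Among LXR partners and other exporters 11 of 15 were detected. The corepressor gene Ncor1 (253.5 ± 7.49), the phospholipid remodelling enzyme gene Lpcat3 (134.0 ± 4.49) and the transporter gene Abca2 (110.6 ± 3.21) were highest, and Abcg4, a close relative of Abcg1, stood at 0.0733 ± 0.0153.

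**Figure D4:**
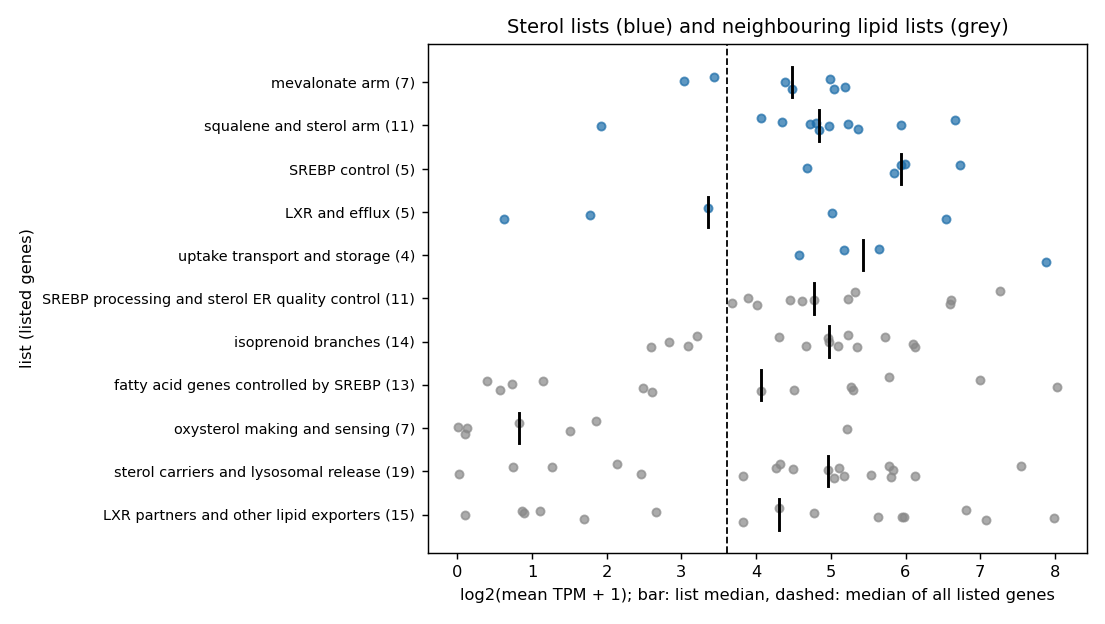
Mean level of each listed gene as log2(mean TPM + 1), by list, with the sterol genes in blue, neighbouring lipid lists in grey and a bar at each list's median. The dashed line is the median of all listed genes (11.2 TPM). The SREBP control list has its median at 60.2 TPM, and the LXR and export list (9.22 TPM) and the oxysterol list (0.767 TPM) have theirs left of the dashed line.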

How the data were processed

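RNA of sorted lung ILC2s from IL-33-treated mice was sequenced in 3 libraries of 1 group, grouped by their titles. Per the submitters' processing notes, Bowtie2, RSEM 1.3.1 and GRCm38.p6 were used. The annotation and strand setting were not given in these sources. Per the file headers, the authors deposited expected counts, TPM, FPKM and normalised read counts (a depth-scaled signal, which equalled the rounded-up count times 1.00144, 1 and 0.997 in replicates 1, 2 and 3 and was not used further). The expected counts are estimates, rounded here to whole numbers before testing.

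Members and lists were chosen with earlier results of these data known. Levels are TPM, and differences are on the log2(TPM + 1) scale, where the pseudocount shrinks those of low genes. Within-library pairs were compared by an exact sign-flip permutation test, and libraries by a chi-square test over all genes (scipy 1.17.1, pandas 2.3.3), after tests on simulated data. TMM factors came from edgeR 4.0.16. Shared words of 50 bases were counted in GENCODE M21 transcripts (GRCm38). Coordinates and promoters are from RefSeq GRCm38.p6. Of the listed IDs 16081 matched. Named were all members, the 3 highest of each neighbouring list, up to 3 of its genes below 1 TPM, marker genes, and genes sharing sequence with a member. A gene that this rule names is not reported here. Alternatives were a pseudocount of 0.1, FPKM, other detection levels, count minimums and size factors, and leaving out each replicate. Estimates from 3 libraries limit precision.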

Additional observations from a re-analysis of the deposited data

How the results depend on the processing

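All 9 pair differences kept their direction with a pseudocount of 0.1, with FPKM and without each replicate, although Hmgcs1 minus Sqle ran from 0.000267 to 0.146 over the libraries left out. The synthesis genes' excess over the LXR and export genes was 1.48 with a pseudocount of 0.1 and 0.98 with FPKM, and that over the fatty acid genes 1.31 and 0.74, since these settings weigh low genes differently. The number of detected sterol genes stayed at 31 without each replicate and was within 1.5 times that at 0.5 TPM, 5 TPM and with FPKM. The set's median percentile was 52.9 among detected genes only, where the reference loses its low genes, and 67.8 to 68.2 without each replicate. Sterol genes that differed between libraries numbered 0 to 7 without each replicate, beside 4.13% to 7.85% of all genes tested. Under the other settings they numbered 5 or 6 (15.6% to 18.8%), beside 8.09% to 12.4% of all genes tested. Few reads limit Nr1h3 and Tm7sf2. No paired comparison of conditions was possible because there is 1 group.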
